A study of Oryza sativa with 14 samples.

Results

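Rice leaves grown with ploughed-in hairy vetch carried less transcript of proline dehydrogenase, the enzyme that starts proline breakdown, than leaves grown with chemical fertilizer, in both seasons studied. The transcripts followed here are those of 3 loci out of 37727 in the deposited count tables. They are PRODH (Os10g0550900), described there as proline dehydrogenase, and the pyrroline-5-carboxylate synthetase genes ALDH18B2 (Os01g0848200, also called P5CS2) and P5CS (Os05g0455500, also called P5CS1). The Description of each locus names the expected enzyme. The locus identifiers place PRODH on chromosome 10, ALDH18B2 on chromosome 1 and P5CS on chromosome 5, and the tables carry no coordinates. All 3 loci passed the low-count filter in both years.

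Proline is an amino acid that plants build up under drought, salt and cold and draw on as a store of carbon, nitrogen and reducing power. Pyrroline-5-carboxylate synthetase (P5CS) turns glutamate into pyrroline-5-carboxylate (P5C), the step that commits glutamate to proline, and P5C reductase finishes the synthesis. In mitochondria, proline dehydrogenase turns proline back into P5C and passes the electrons to the respiratory chain, and P5C dehydrogenase returns P5C to glutamate. Ornithine, made from arginine by arginase, is a second source of P5C through ornithine aminotransferase. In Arabidopsis, synthesis and breakdown genes are known to be regulated in opposite directions by osmotic stress and its relief.

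The plants were the japonica cultivar Koshihikari, labelled wild type, and each of 14 RNA-seq libraries came from 1 leaf. Chemical fertilizer (CF) leaves came from a paddy given nitrogen and K at 56 kg per hectare each, PO4 at 176, Mg at 90 and SiO2 at 120 kg per hectare, and green manure (GM) leaves from soil in which hairy vetch had been grown for 5 months and ploughed in, with no chemical fertilizer added. In 2023 there were 4 leaves per treatment, taken 47 days after transplanting, with vetch sown at 30 kg of seed per hectare, and in 2024 there were 3 leaves per treatment, taken at 38 days, with 60 kg of seed per hectare. Seedlings of every group were raised with 19 kg per hectare each of N, PO4 and K before transplanting. The number of plots per treatment is not stated, so treatment and field cannot be told apart, and errors measure the spread between leaves. Year and days after transplanting cannot be told apart either, nor, among GM leaves, vetch seed rate. The labels used here name no sequencing run, so a difference in it between years cannot be told apart from year. Totals lay between 8161851 and 11375515 reads per library in 2023 and between 13224671 and 23367369 in 2024. The leaf markers RBCS, RBCS3, CAB2R, ALDP and PSBQ were abundant in every library, at 529 CPM (reads scaled to a common library size with TMM) or more, while the root gene LSI2 and the meristem gene OSH1 had 0 reads. The other root marker, LSI1, was read in every library, at 7.98 to 34.4 CPM, and the other meristem marker, CDKB2;1, lay at 0 to 2.76 CPM. The leaf markers summed to 20093 to 34606 CPM with CF and 32966 to 59367 CPM with GM in 2023, and to 63754 to 68012 and 79169 to 127118 CPM in 2024, where the treatments did not overlap. The panicle markers RAP1B and LHS1 summed to 5.68 to 14.7 CPM with CF and 2.95 to 6.91 CPM with GM in 2023, and to 2.86 to 4.27 and 2.76 to 6.74 CPM in 2024. The part of these markers in the treatment differences was not tested. On the first principal component of 2023, GM library 2 lay farthest out, at 44.9, followed by GM library 1 at 17.3, against 4.19 and 4.09 for GM libraries 3 and 4.

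The 3 loci were chosen by their function and by their measured fold changes of GM against CF in these libraries, PRODH being among the largest falls of 2024. Their treatment differences are therefore described here with no p-value, and where calls are counted, nothing is read from them. The average difference between years does not use the treatment difference within a year, and it was tested. The lists of other genes were also drawn up with earlier results of these data known, so their calls and p-values are descriptive.

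PRODH was lower with green manure in all GM libraries among the 14 labelled ones. In 2023 it stood at 108, 128, 109 and 81.6 CPM in CF libraries 1 to 4, and at 59.2, 60.3, 61.0 and 57.4 CPM in GM libraries 1 to 4. The highest GM library lay below the lowest CF library. The GM libraries had a coefficient of variation of 2.63%, against 17.9% in the CF libraries. Counting error alone gives the 563 reads of GM library 4 an exact Poisson 95% interval of 517 to 611. In 2024 the coefficients were 16.2% with GM and 31.1% with CF, so nothing is read from the narrow spread of 2023. The mean was 107 ± 19.1 CPM with CF and 59.5 ± 1.56 CPM with GM (SD, n = 4), so that GM leaves held 55.8% of the CF level. The fitted log2 fold change was -0.85 ± 0.12 (SE). In bulk leaf RNA, fewer cells that express a gene and less of its RNA per cell cannot be told apart.

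In 2024 the gap in PRODH was wider. CF libraries 1 to 3 held 131, 184 and 99.2 CPM, and GM libraries 1 to 3 held 37.8, 28.5 and 38.9 CPM. Again no GM library reached the lowest CF library. The mean went from 138 ± 43.0 CPM with CF to 35.1 ± 5.69 CPM with GM (SD, n = 3), or 25.4% of the CF level, and the log2 fold change was -1.98 ± 0.24 (SE). Among all tested genes this fold change ranked 20 from the lowest of 19261 in 2024 and that of the year before 219 from the lowest of 18577. Libraries of the treatments did not overlap, in the lower direction in both years, for 1.43% of genes tested in both, and for 4.61% in 2023 and 10.9% in 2024 taken alone. Since this contrast was in view when the locus was listed, nothing is read from these ranks.

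**Figure D1:**
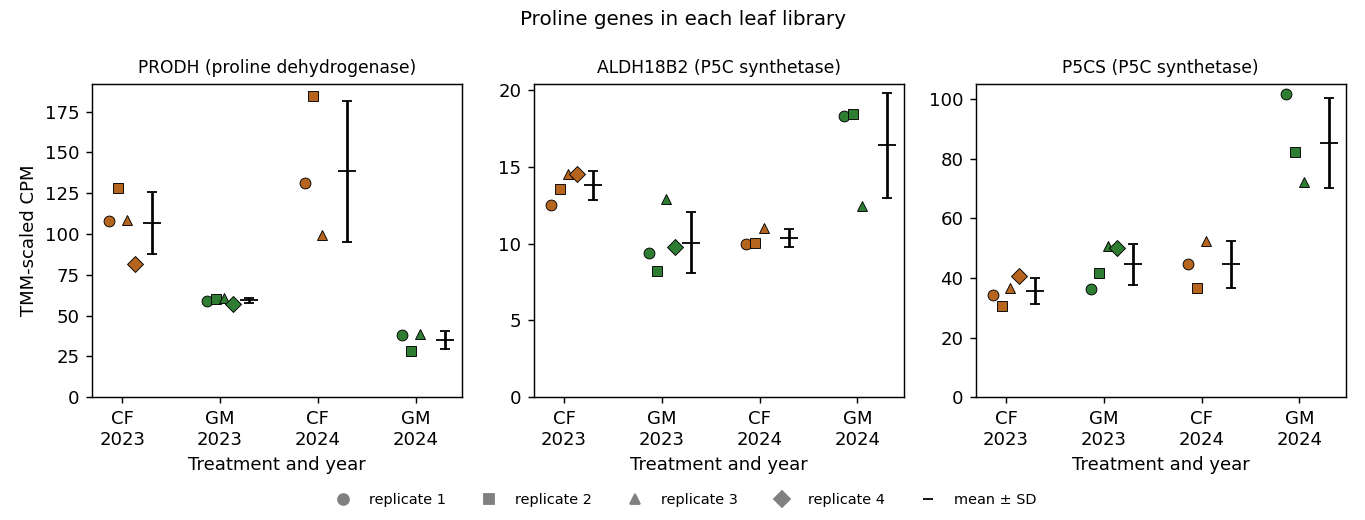
Level of each gene in each leaf library, in TMM-scaled CPM on linear axes that start at 0 and differ between panels. Each point is 1 leaf (brown CF, green GM, shape by replicate number) and bars give mean ± SD; PRODH is lower in all GM libraries of both years, P5CS is highest in GM 2024, and ALDH18B2 is lower with GM in 2023 by its mean and higher in 2024.

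P5CS, the more heavily read of the synthetase genes, was on the higher side with green manure. In 2023 it stood at 34.2, 30.5, 36.7 and 40.7 CPM in CF libraries 1 to 4 and at 36.3, 41.7, 50.5 and 49.9 CPM in GM libraries 1 to 4. The treatments overlapped, because GM library 1 lay below CF libraries 3 and 4. The means were 35.5 ± 4.27 CPM with CF and 44.6 ± 6.86 CPM with GM (SD, n = 4), a log2 fold change of 0.32 ± 0.12 (SE), which became 0.15 ± 0.13 when libraries were scaled by their plain totals.

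In 2024 P5CS stood at 44.7, 36.4 and 52.4 CPM in CF libraries 1 to 3 and at 102, 82.1 and 72.1 CPM in GM libraries 1 to 3. All GM libraries lay above all CF libraries, as for 11.8% of tested genes in that year. The mean went from 44.5 ± 8.01 to 85.3 ± 15.0 CPM (SD, n = 3), so that GM leaves held 192% of the CF level, a log2 fold change of 0.93 ± 0.15 (SE). The summed level of the root markers LSI1 and LSI2, all of it LSI1, moved the same way, at 19.3 to 24.8 CPM in CF and 26.5 to 34.4 CPM in GM libraries of 2024, and at 7.98 to 16.8 and 15.6 to 29.4 CPM in those of 2023. The summed meristem markers OSH1 and CDKB2;1 reached at most 2.76 CPM, in a GM library of 2024. The part of these markers in the P5CS difference was not tested.

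ALDH18B2, the other synthetase gene, went in opposite directions in the 2 years. In 2023 it stood at 12.5, 13.5, 14.6 and 14.6 CPM in CF libraries 1 to 4 and at 9.40, 8.23, 12.9 and 9.79 CPM in GM libraries 1 to 4. GM libraries 1, 2 and 4 lay below all CF libraries, and GM library 3 lay just above CF library 1. The means were 13.8 ± 0.966 CPM with CF and 10.1 ± 1.99 CPM with GM (SD, n = 4), or 73.0% of the CF level, with a log2 fold change of -0.46 ± 0.15 (SE). Leaving out GM libraries 1 and 2 together gave -0.28 ± 0.16 for ALDH18B2, 0.50 ± 0.11 for P5CS and -0.85 ± 0.15 for PRODH.

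In 2024 ALDH18B2 stood at 10.0, 10.1 and 11.1 CPM in CF libraries 1 to 3 and at 18.3, 18.5 and 12.5 CPM in GM libraries 1 to 3. Every GM library lay above every CF library, as for 11.8% of tested genes in that year, and GM library 3 did so by the least. The mean went from 10.4 ± 0.589 to 16.4 ± 3.43 CPM (SD, n = 3), or 158% of the CF level, with a log2 fold change of 0.64 ± 0.16 (SE). The difference between the years' fold changes was 1.11 ± 0.23 on the log2 scale for ALDH18B2, 0.61 ± 0.21 for P5CS and -1.13 ± 0.26 for PRODH, and none of these was tested. A fold change lower in 2023 and higher in 2024 was found for 18.6% of genes tested in both years. ALDH18B2 had the fewest reads of the 3 genes, between 80 and 283 per library, against 329 to 1567 for P5CS and 269 to 2762 for PRODH. Its lowest count, 80 reads, has an exact Poisson 95% interval of 63.4 to 99.6, which covers counting error only.

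By edgeR's quasi-likelihood fit of the whole table with Benjamini-Hochberg adjustment over all genes (adjusted p under 0.05), 1 of the 3 genes was called in 2023, PRODH, where 2.48% of all tested genes were called (1.63% higher and 0.851% lower with GM), and all 3 were called in 2024, where 3.25% were (1.89% higher and 1.36% lower). The genes having been listed with these contrasts known, the counts describe them and carry no weight. When 1 library of 2024 was left out, P5CS was no longer called without CF library 1 or GM library 2, and ALDH18B2 was called in 1 of 6 fits, that without GM library 3.

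**Figure D2:**
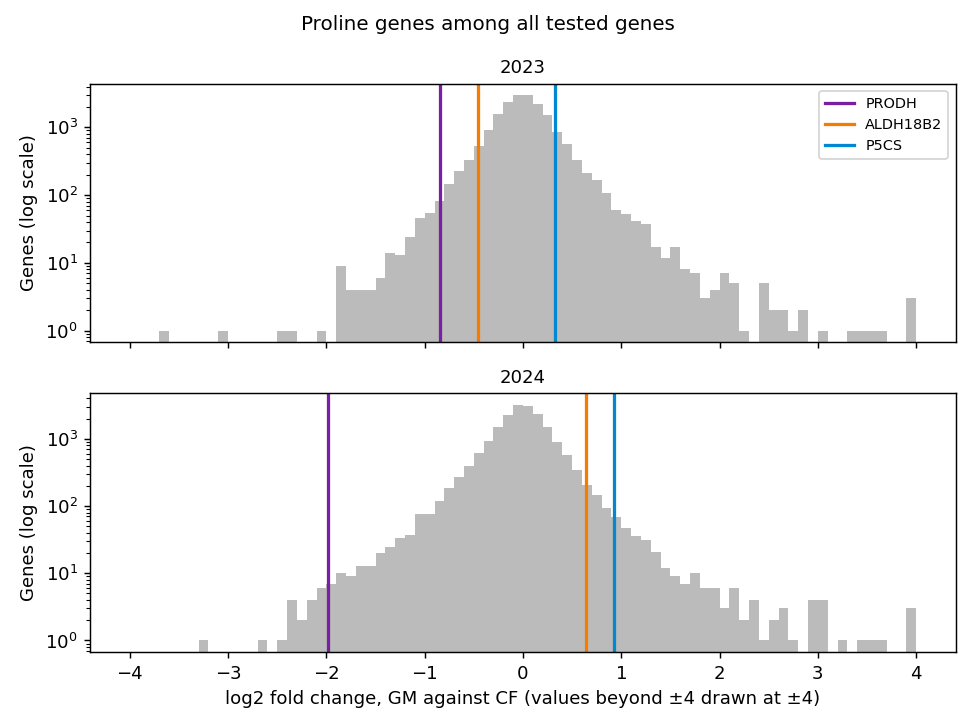
Distribution of the log2 fold change of GM against CF over all genes tested in each year (grey bars, number of genes on a log axis), with a line at the value of each proline gene. In 2023 the lines stand at -0.85 (PRODH), -0.46 (ALDH18B2) and 0.32 (P5CS), and in 2024 at -1.98, 0.64 and 0.93.

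Ratios of reads within a library do not depend on how libraries are scaled, though their size also reflects transcript length, so that only their differences between libraries are read. Reads of PRODH per read of P5CS numbered 3.15, 4.20, 2.95 and 2.01 in CF libraries 1 to 4 of 2023 and 1.63, 1.45, 1.21 and 1.15 in the GM libraries. In 2024 they numbered 2.94, 5.05 and 1.89 in the CF libraries and 0.373, 0.348 and 0.540 in the GM libraries. The treatments did not overlap in either year, and the ratio was on average 2.21-fold lower with GM in 2023 and 7.38-fold lower in 2024 (log2 differences -1.15 ± 0.25 and -2.88 ± 0.45, SE). By CPM, in CF leaves of both years the library with the most PRODH (library 2) had the least P5CS. The CF library with the least PRODH (library 4 in 2023, library 3 in 2024) had the most P5CS. GM leaves did not share this order throughout. In 2023 GM library 3 had the most of both genes. In 2024 GM library 3 had the most PRODH and the least P5CS, but GM library 2, with the least PRODH, lay in the middle for P5CS.

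Reads of PRODH per read of ALDH18B2 overlapped between the treatments in 2023, at 5.59 to 9.44 with CF and 4.71 to 7.29 with GM, since both genes were on the lower side with GM. In 2024 they ran from 8.95 to 18.2 with CF and from 1.54 to 3.11 with GM, without overlap. The balance between the synthetase genes differed as well. P5CS reads per ALDH18B2 read lay between 2.25 and 2.79 in CF leaves of 2023 and between 3.85 and 5.08 in GM leaves of that year, with no overlap. In 2024 they overlapped, at 3.61 to 4.73 with CF and 4.44 to 5.77 with GM. ALDH18B2 supplied 28.1% ± 1.97 of the reads of the synthetase pair in CF leaves of 2023, and 18.4% ± 2.32 in GM leaves of 2023, 19.1% ± 2.24 in CF leaves of 2024 and 16.1% ± 1.95 in GM leaves of 2024 (SD, n = 4, 4, 3 and 3). The tables are headed as unique exon reads, and how much sequence the synthetase transcripts share was not analysed here.

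**Figure D3:**
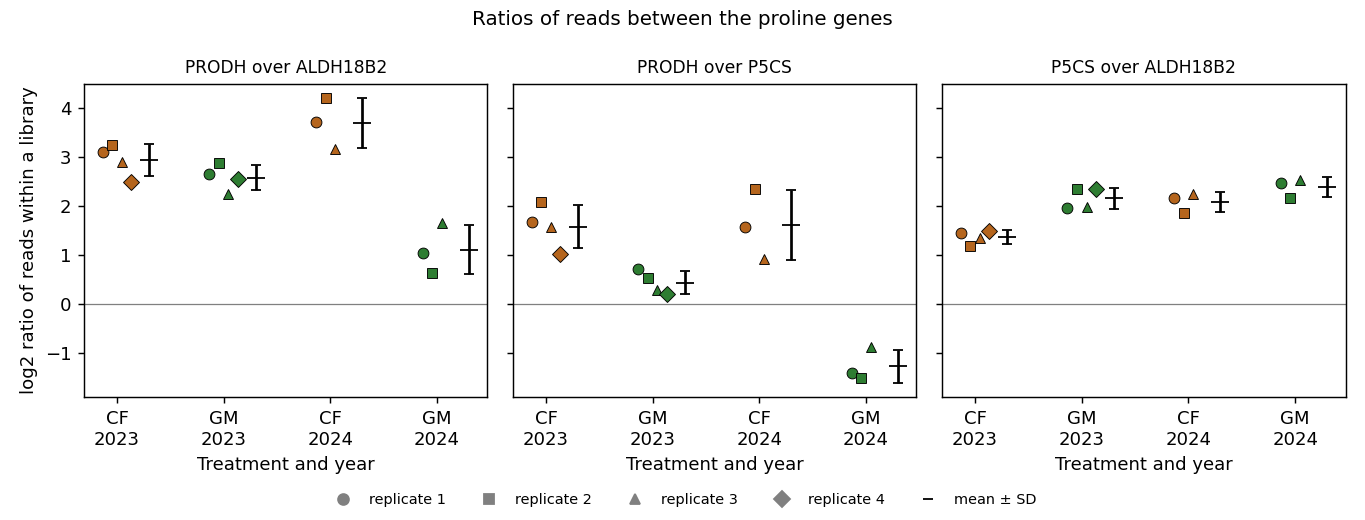
Log2 ratio of reads between pairs of the proline genes within each leaf library (points, 1 leaf each; bars, mean ± SD; 0 means equal reads). PRODH over P5CS is lower in all GM libraries than in the CF libraries of the same year and falls below 0 in the GM libraries of 2024.

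Averaged over both treatments, P5CS was the only one of the 3 genes to pass the test between the years. Its mean rose from 40.1 CPM in 2023 to 64.9 CPM in 2024, a log2 difference of 0.63 ± 0.10 (SE; adjusted p = 4.17e-05, edgeR's quasi-likelihood test over 19805 genes), with libraries of the 2 years overlapping at 30.5 to 50.5 and 36.4 to 102 CPM. Such a call was common, since 54% of all tested genes passed in this comparison, 25.1% being higher and 28.8% lower in 2024. PRODH (log2 difference -0.19 ± 0.13, adjusted p = 0.219) and ALDH18B2 (0.15 ± 0.11, adjusted p = 0.285) did not pass the same edgeR test. For both, the average joined opposite differences within treatments. From 2023 to 2024 PRODH differed by 0.37 ± 0.18 in CF and -0.76 ± 0.19 in GM leaves, ALDH18B2 by -0.41 ± 0.16 and 0.70 ± 0.16, and P5CS by 0.33 ± 0.15 and 0.94 ± 0.14 (log2, SE, not tested). These calls depended on the scaling. When libraries were scaled by their plain totals, the median over all genes moved from -0.05 to -0.51, and the values became 0.18 for P5CS (adjusted p = 0.158), -0.65 for PRODH (adjusted p = 0.00097) and -0.31 for ALDH18B2 (adjusted p = 0.0313), all by edgeR. PRODH also passed without CF library 2 of 2024, at -0.29 (adjusted p = 0.0269, edgeR). The part of the leaf markers, whose sum was higher in every library of 2024 than in any of 2023, in the difference between years was not tested.

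The order of the 4 groups differed between the genes. For PRODH it ran from CF 2024 (138 CPM) and CF 2023 (107 CPM), which overlapped, to GM 2023 (59.5 CPM) and GM 2024 (35.1 CPM), each clear of its neighbours. For P5CS, GM 2024 (85.3 CPM) stood clear of GM 2023 (44.6 CPM), CF 2024 (44.5 CPM) and CF 2023 (35.5 CPM), which overlapped each other in turn. For ALDH18B2, GM 2024 (16.4 CPM) overlapped CF 2023 (13.8 CPM), CF 2023 stood clear of CF 2024 (10.4 CPM), and CF 2024 overlapped GM 2023 (10.1 CPM).

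None of the other 4 genes of the proline pathway list passed the edgeR test in either year, where 2.48% and 3.25% of all tested genes did. With an unadjusted p under 0.05 there was 1 in 2023 and 0 in 2024, against 15.5% and 17.1% of all tested genes, and DESeq2 called 0 in both. P5CR (Os01g0948400), the P5C reductase that makes proline from P5C, stood at 12.8 to 15.5 CPM with CF and 17.6 to 19.5 CPM with GM in 2023. Its libraries did not overlap, as for 9.96% of all tested genes in that year (5.35% in the higher direction), and its log2 fold change was 0.37 ± 0.12 (adjusted p = 0.116). In 2024 P5CR gave 0.13 ± 0.14 (edgeR adjusted p = 0.71), with overlapping libraries, and turned to -0.072 under plain totals and to -0.022 without GM library 1.

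Downstream of PRODH, the P5C dehydrogenase gene Os05g0536400 differed little between treatments, and its libraries overlapped in both years. Its log2 fold change was 0.15 ± 0.12 in 2023 (means of 24.4 CPM with CF and 27.1 CPM with GM, adjusted p = 0.609 by edgeR). In 2024 it was 0.15 ± 0.10 (means of 23.8 and 26.5 CPM, edgeR adjusted p = 0.523). These fold changes turned to -0.039 and -0.062 under plain totals. On the ornithine branch, OAT (Os03g0643300), ornithine aminotransferase, gave -0.17 ± 0.14 in 2023 (edgeR adjusted p = 0.633) and 0.28 ± 0.14 in 2024 (adjusted p = 0.327). In 2024 its GM libraries (15.2 to 19.4 CPM) lay just above its CF libraries (12.1 to 15.1 CPM), as for 22.7% of tested genes in either direction. The arginase gene NGLF (Os04g0106300) gave -0.03 ± 0.13 and -0.19 ± 0.15 (edgeR adjusted p = 0.941 and 0.583), the former turning to 0.037 without CF library 1. The list's median log2 fold change was 0.06 in 2023 and 0.14 in 2024, against medians over all genes of 0.00 in both years. In the average difference between years 0 of these 4 genes passed the edgeR test or DESeq2, 0 had an unadjusted edgeR p under 0.05, against 59.4% of all tested genes, and their values lay between -0.14 and -0.03.

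**Figure D4:**
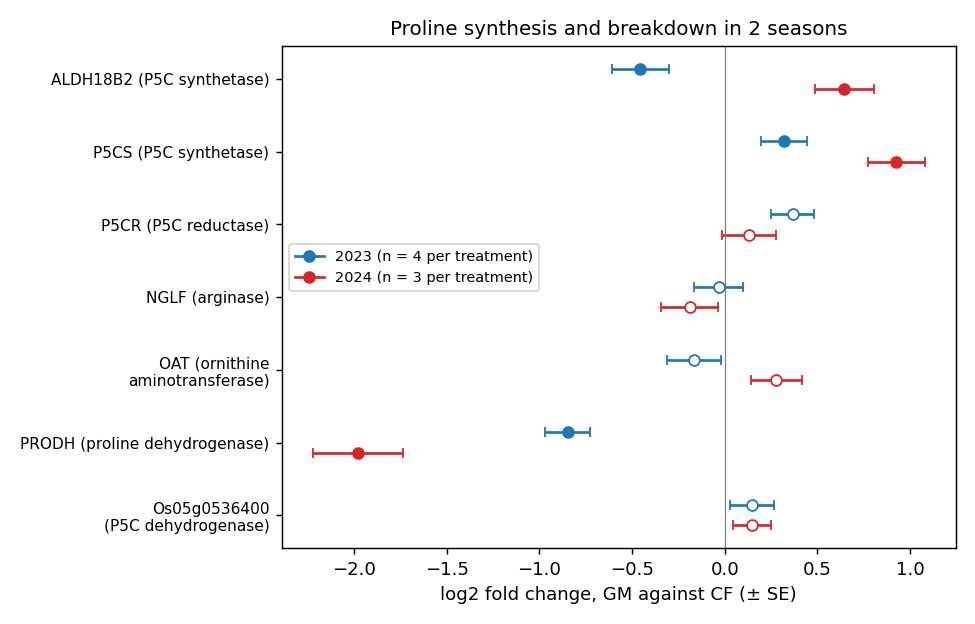
Log2 fold change of GM against CF with its SE for the 7 genes of proline synthesis and breakdown, in 2023 (blue) and 2024 (red). Filled points are PRODH, ALDH18B2 and P5CS and open points the other genes of the pathway, none of which passed the test. PRODH lies lowest of the 7 in both years, and since it was listed with this contrast known, nothing is read from its place.

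Glutamate is both the substrate of P5CS and the end product of proline breakdown. Of 8 genes of glutamate and glutamine metabolism 7 were tested. Among these edgeR called 2 in 2023 and 2 in 2024, where 2.48% and 3.25% of all tested genes were called. An unadjusted p under 0.05 was found for 3 and 5, against 15.5% and 17.1%. Since this list was drawn up with earlier results of these data known, its counts and p-values describe it, and nothing is read from the counts. In 2023 GLN1;2 (Os03g0223400), a cytosolic glutamine synthetase, rose from 24.1 to 54.5 CPM with GM (log2 fold change 1.17 ± 0.17, adjusted p = 0.00341, edgeR), and GLT2 (Os05g0555600), an NADH-dependent glutamate synthase at 0.6 and 2.4 CPM, rose by 2.04 ± 0.51 (adjusted p = 0.0459). In 2024 GLN1;2 rose again (0.67 ± 0.12, adjusted p = 0.0137) and GLN1;1 (Os02g0735200), another cytosolic glutamine synthetase, fell by 0.41 ± 0.10 on the log2 scale (adjusted p = 0.0413), both by edgeR. GLT2 gave 1.81 ± 0.46 in that year (edgeR adjusted p = 0.0538), and passed with DESeq2 (adjusted p = 0.0315), with no low-count filter (0.0135) and with the replicate block (0.013). With 1 library left out, GLN1;2 kept its call in all 8 fits of 2023 and lost it in 2024 without CF library 1 or 2, at edgeR adjusted p up to 0.0595. GLT2 lost its call in 7 of 8 such fits of 2023 (edgeR adjusted p up to 0.166) and GLN1;1 lost its own in 5 of 6 of 2024 (up to 0.17). The medians of the list were -0.02 and 0.04, and the abundant plastid genes GS2 and ABC1 (ferredoxin-dependent glutamate synthase) did not pass in either year.

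Of 13 genes for proline transport and use, 10 were tested in 2023 and 11 in 2024, and 0 passed in either year by edgeR, with 1 at an unadjusted p under 0.05 in each. Over all tested genes 2.48% and 3.25% passed, and 15.5% and 17.1% had an unadjusted p under 0.05. PROT (Os03g0644400), the annotated proline transporter, gave 0.06 ± 0.10 and 0.18 ± 0.12. The nearest to the threshold was Os02g0827100, similar to a prolyl 4-hydroxylase, an enzyme class that modifies proline residues in proteins. It stood at 2.3 and 4.5 CPM in 2023 (0.97 ± 0.26, edgeR adjusted p = 0.0598) and at 5.9 and 9.1 CPM in 2024 (0.59 ± 0.21, adjusted p = 0.16). DESeq2 called Os02g0827100 in 2023 and 0 genes of the list in 2024. The next nearest in 2023 was Os10g0497800, of the same class, at -0.29 ± 0.20 (edgeR adjusted p = 0.516), and in 2024 it was PROT (edgeR adjusted p = 0.486).

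Genes whose level followed that of each member most closely were sought by Pearson correlation of log2(CPM + 1), centred within each year, over the 14 libraries, among the 9959 genes that averaged at least 5 CPM in each year and whose annotation says more than a placeholder. The libraries fall into treatment groups, so these values describe likeness to a treatment difference already seen and have no test. Nearest to PRODH were ASNASE2 (Os04g0650700, r = 0.99), by its name an asparaginase, and NRT2.4 (Os01g0547600, r = 0.98), described as a high-affinity nitrate transporter. Os03g0254200 (r = 0.96), ALN (Os04g0680400, r = 0.96), the allantoinase of ureide breakdown, and Os04g0516600 (r = 0.95), a pyridoxal phosphate-dependent transferase, came next. Their fold changes ran from -1.08 to -0.45 on the log2 scale in 2023 and from -2.07 to -1.08 in 2024.

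Nearest to P5CS were HIPP33 (Os02g0510600, r = 0.94), described as a heavy metal transport and detoxification domain protein, Os07g0185200 (r = 0.92), the aspartokinase-like gene Os03g0850400 (r = 0.92), PFP (Os03g0712700, r = 0.91), described as a cytosolic phosphoglucomutase, and OsF2KP1 (Os05g0164100, r = 0.90), which is similar to the enzyme that makes and removes fructose 2,6-bisphosphate. ALDH18B2 had no neighbour as close. Its nearest were HRZ1 (Os01g0689451, r = 0.82), the DnaJ-domain gene OsDjC44 (Os04g0388800, r = 0.82), POLD1 (Os11g0186400, r = 0.80), the catalytic subunit of DNA polymerase delta, STR17 (Os05g0323100, r = 0.80), with a rhodanese-like domain, and DNA2_9 (Os10g0537600, r = 0.78), described as a DNA replication helicase.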

How the data were processed

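Read counts of 14 leaf libraries were taken from the deposited tables for 2023 and 2024. The deposited counts are raw whole-number reads for each Rice Annotation Project locus, headed as unique exon reads, against build IRGSP 1.0 per the submitters' processing notes. The libraries are directional polyA libraries per the labels' protocols. Aligner, counter and use of strand were not given in the sources used here. In addition, the 2024 table holds 2 more columns of libraries, headed replicate 4, which match no labelled sample and were not used, so that statements on all libraries cover the 14 labelled ones.

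Members and gene lists were chosen with earlier results of these data known. Loci below filterByExpr's limits (count 10, total 15) were dropped, and counts were TMM-scaled and fitted with edgeR 4.0.16 (quasi-likelihood, robust) in R 4.3.3, within each year for GM against CF and over all 14 libraries for the average difference between years. Benjamini-Hochberg adjusted p under 0.05 was called. The SE of a log2 fold change was taken as its size over the square root of the F statistic. CPM shown are scaled by 1 TMM over all libraries. Ratios of reads add 0.5 read to each count.

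Genes named are the 3 members, all of the proline pathway list, up to 4 called genes (or the 2 nearest) of each other list per year, and the 5 most like each member. Of the 5 lists, 4 loci whose description names another protein were left out (acetylornithine aminotransferases and homogentisate phytyltransferases). On simulated data with 2-fold and 4-fold changes, 76% and 92% were recovered in 2023 (18577 genes), 74% and 94% in 2024 (19261 genes) and 80% and 98% between years (19805 genes). In these simulations 100 genes were changed at each size. Of the unchanged genes, 22 in 2023, 19 in 2024 and 10 between years were called. In the simulations of 2023 and 2024 these false calls were a larger share of all calls than the threshold of 0.05. Calls near the threshold within a year are thus less certain than it states. Alternatives were DESeq2 1.42.0, its size factors, plain totals, other filters, 1 fit of all libraries, the replicate number as a block and leaving out libraries.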

Additional observations from a re-analysis of the deposited data

Results flagged for a closer look

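ALDH18B2 had opposite treatment differences in the 2 years. Every GM library of 2023 lay below the mean of the CF libraries of that year, and every GM library of 2024 lay above the mean of its CF libraries. The log2 fold change of 2024 minus that of 2023 was 1.11 ± 0.23 (SE). The difference was not tested, because the locus was listed with the treatment results known. No library of 2023 stood apart from its group for any of the 7 proline genes by Dixon's criterion, and groups of 3 were not examined.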

How the results depend on the processing

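The treatment differences of PRODH, ALDH18B2 and P5CS kept their direction under every alternative run and moved by less than 1 SD of log2 levels pooled within groups. Under plain totals they were -1.04, -0.63 and 0.15 in 2023 and -2.18, 0.44 and 0.72 in 2024, P5CS of 2023 moving by over 1.5 times. Log2 fold changes in 2023, with 1 library left out, lay from -0.95 to -0.74 for PRODH, -0.60 to -0.37 for ALDH18B2 and 0.25 to 0.41 for P5CS, and in 2024 from -2.17 to -1.72, 0.55 to 0.81 and 0.78 to 1.06. The labels do not say that replicate numbers pair the leaves. Deviations of same-numbered leaves correlated between -0.11 and 0.15 in 2023 and between -0.00 and 0.32 in 2024. With 4 leaves per treatment in 2023 and 3 in 2024, these values cannot settle whether same-numbered leaves belong together. With the replicate block the values were -0.83, -0.47 and 0.32 in 2023 and -1.93, 0.62 and 0.92 in 2024, and the called genes numbered 344 and 1616 against 460 and 626. Called genes in 2023 numbered 835 with DESeq2, 723 with all 14 libraries in 1 fit, 788 without GM libraries 1 and 2 and 149 to 666 with 1 library left out. In 2024 they numbered 1188 with plain totals, 975 with no filter on low counts and 162 to 1603 with 1 library left out. With plain totals 24.4% of calls in 2023 and 17.1% in 2024 were higher with GM, against 65.7% and 58.1% with TMM, as the median over all genes moved to -0.18 and -0.21. Under plain totals the average difference between years was -0.65 for PRODH (now passing the test), -0.31 for ALDH18B2 (reversed) and 0.18 for P5CS (no longer passing). With 1 library left out it lay from -0.29 to -0.067 for PRODH, and PRODH passed without CF library 2 of 2024. Among the other proline genes, which did not pass, P5CR in 2024 turned to -0.072 and Os05g0536400 to -0.039 in 2023 and -0.062 in 2024 under plain totals, Os05g0536400 to -0.057 in 2023 without GM libraries 1 and 2, NGLF in 2023 to values from -0.10 to 0.037 with 1 library left out, and P5CR in 2024 to values from -0.022 to 0.22. The call of GLN1;2 in 2024 was lost under plain totals and in 1 fit of all libraries, that of GLN1;1 in 2024 in 1 fit of all libraries, and that of GLT2 in 2023 under plain totals, with the replicate block and without GM libraries 1 and 2. The pathway list had 0 calls under every alternative run. With 1 library left out, log2 ratio differences kept their direction, at -1.34 to -0.98 in 2023 and -3.23 to -2.52 in 2024 for PRODH over P5CS, -0.50 to -0.24 and -2.85 to -2.33 for PRODH over ALDH18B2, and 0.72 to 0.86 and 0.18 to 0.42 for P5CS over ALDH18B2. The cause of these shifts was not tested. ALDH18B2 had 80 reads in its thinnest library, the lowest count of the 3 genes.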

Other observations

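Other enzymes feed amino acid carbon into mitochondrial respiration, as proline dehydrogenase does. Of 11 genes of branched-chain, lysine and tyrosine breakdown and the electron transfer flavoprotein, 10 were tested in each year, and edgeR's quasi-likelihood test and DESeq2 both called 0 in 2023 and 0 in 2024, near the edgeR share of 2.48% and 3.25% over all genes, with 4 and 3 at an unadjusted edgeR p under 0.05, against 15.5% and 17.1% of all genes. Median log2 fold changes were 0.09 and 0.01. BCKDH (Os12g0183100), the E1-alpha subunit of the branched-chain keto acid dehydrogenase, stood at 0.39 ± 0.13 in 2023 and 0.33 ± 0.10 in 2024 (edgeR adjusted p = 0.157 and 0.112). The nearest to the threshold were Os12g0137200, of the saccharopine dehydrogenase family (-0.36 ± 0.10, edgeR adjusted p = 0.0855 in 2023), and Os07g0170100, the E1-beta subunit of the same keto acid dehydrogenase (-0.36 ± 0.11, edgeR adjusted p = 0.0932 in 2024).

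Markers of water stress, under which P5CS genes of plants are known to be induced, also had 0 calls between treatments in both years by edgeR and by DESeq2. Of 14 such genes 7 passed the low-count filter in each year, with 1 at an unadjusted edgeR p under 0.05 in 2023 and 0 in 2024, and medians of -0.15 and -0.18. Over all tested genes edgeR called 2.48% and 3.25%, and 15.5% and 17.1% had an unadjusted p under 0.05. LEA3-1 (Os05g0542500) had 8 reads over all 14 libraries and RAB16A (Os11g0454300) had 31. DHN1 (Os02g0669100), a dehydrin, had the most reads of the list (12258 over all libraries) and gave -0.27 ± 0.11 in 2023 and -0.05 ± 0.14 in 2024 (edgeR adjusted p = 0.242 and 0.902). SALT (Os01g0348900), a jacalin-related lectin named for its salt response, gave 1.59 ± 0.74 and -0.16 ± 0.21 (edgeR adjusted p = 0.335 and 0.775), and the regulator BZIP23 (Os02g0766700) gave -0.15 ± 0.11 and -0.13 ± 0.11 (edgeR adjusted p = 0.587 and 0.631). DREB1A (Os09g0522200), the second nearest in 2024, gave -0.53 ± 0.66 (edgeR adjusted p = 0.752). In the average difference between years, edgeR called 4 of the 7 higher in 2024 and 0 lower. These were DHN1 at 0.64 ± 0.09, BZIP23 at 0.61 ± 0.08, NCED1 (Os03g0645900), of abscisic acid synthesis, at 1.33 ± 0.21 and SALT at 1.33 ± 0.41 (edgeR adjusted p = 6.97e-06, 2.67e-06, 2.56e-05 and 0.0132). BZIP46, DREB1A and RAB16C (Os11g0454000) lay below 0 without a call, at -0.47 ± 0.26, -0.76 ± 0.39 and -0.10 ± 0.30. Of all tested genes 25.1% were called higher and 28.8% lower in that comparison. The part of water stress in the P5CS difference between years was not tested. Scaled by plain totals, under which the median over all genes moved from -0.05 to -0.51, NCED1 kept its call at 0.89 (edgeR adjusted p = 0.00146), while DHN1 at 0.18, BZIP23 at 0.16 and SALT at 0.87 lost theirs (edgeR adjusted p = 0.174, 0.154 and 0.0726), and BZIP46 (Os06g0211200) at -0.93 and DREB1A at -1.20 passed in the lower direction (edgeR adjusted p = 0.00487 and 0.00851).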
